A study of Oryctolagus cuniculus with 12 samples.

Results

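Immediate early genes are the first genes that a cell transcribes after a stimulus, without needing new protein synthesis. Of the 10 looked for in the rabbit cornea (FOS, FOSB, JUN, JUNB, EGR1, EGR3, DUSP1, ATF3, IER2 and MYC), chosen by gene name, 9 were found by that name among the 29076 rows of the deposited table. JUNB is not analysed here. The RNA came from 12 cornea libraries in 4 groups of 3: BL, labelled blue light, the groups labelled GL and RL, which the labels do not spell out, and Ctrl. All libraries carry the same further labels: rabbits aged 6 months on a normal diet, and light exposure for 6 weeks, a treatment text that stands on the Ctrl libraries too. The sources used here give no wavelength, no intensity and no interval between the last exposure and tissue collection. The labels do not say whether the 3 libraries of a group came from separate animals, so the p-values below cover only the sample-to-sample spread, and that may be technical.

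Signals from growth factor receptors, stress kinases and injury reach these genes through the MAP kinase cascades, which act on the serum response factor SRF and its ELK partners at their promoters. Fos and Jun proteins pair with each other to form AP-1, EGR proteins bind GC-rich sites, and DUSP1 is a phosphatase that switches the MAP kinases off again. In corneal epithelium, AP-1 and EGR1 are known for their rapid induction by wounding, and their transcripts last only a short time.

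Total counts per library were 40.9 to 58.8 M in BL, 61.6 to 64.7 M in GL, 45.9 to 62.4 M in RL and 44.4 to 56.9 M in Ctrl, so the GL libraries were among the deepest. Corneal transcripts were abundant: KRT12, the keratin of the corneal epithelium, had between 7739 FPKM in Ctrl 3 and 14017 FPKM in RL 3 (FPKM, fragments per kilobase per M mapped fragments, is a level per transcript length). Markers of other tissue were uneven. The 10 lens markers summed to 2265 to 17167 FPKM in BL, 865 to 3470 in GL, 829 to 3041 in RL and 5336 to 8506 in Ctrl, and the highest sum was in BL 1. The 12 retina markers were highest in GL 3 (249 FPKM), BL 1 (90.0 FPKM) and Ctrl 2 (52.5 FPKM) and summed to 4.48 to 19.6 FPKM in the other 9 libraries. Immune markers summed to 12.9 to 55.3 FPKM, with the T cell gene CD3E listed at 0 in all 12 libraries. In 5 libraries (all BL, RL 1 and Ctrl 1) 2389 to 2563 genes had counts of 1 to 20, against 767 to 1461 genes in the other 7.

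FOS, the founding partner of AP-1, was the most abundant of the 9 by FPKM in the median library and stood higher in FPKM than at least 92.1% of all rows of the table in every library. It lies on sequence NC_013688.1 at 29860066 to 29863336 on the minus strand (here and below as the file gives it; the build is not given in the sources used here). FOS had 73.0, 162 and 279 FPKM in BL, 39.7, 33.2 and 53.2 FPKM in GL, 224, 140 and 331 FPKM in RL, and 273, 313 and 77.9 FPKM in Ctrl (replicates 1, 2 and 3 of each group, as in all such lists). The 3 GL libraries were the 3 lowest of all 12, while the BL, RL and Ctrl libraries overlapped. Group means were 171 ± 103 FPKM in BL, 42.0 ± 10.2 FPKM in GL, 232 ± 96.0 FPKM in RL and 221 ± 126 FPKM in Ctrl (SD, n = 3 each). RL, Ctrl and BL, in falling order, thus lay within each other's spread, and GL stood last.

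FOSB, a close relative of FOS, lies on the scaffold NW_003159633.1 at 121963 to 125744, plus strand. It had 3.03, 20.5 and 36.1 FPKM in BL, 6.08, 11.8 and 4.93 FPKM in GL, 15.2, 13.0 and 119 FPKM in RL, and 34.8, 62.5 and 6.32 FPKM in Ctrl. Each GL library was below each RL library, but BL 1 and Ctrl 3 were as low as GL. Its range over the 12 libraries was 39.3-fold, against 9.98-fold for FOS.

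JUN, the usual partner of the Fos proteins, is annotated as a span of 1116 bases on NC_013681.1, 107997083 to 107998198, plus strand. It had 12.6, 31.4 and 40.2 FPKM in BL, 9.25, 21.3 and 12.8 FPKM in GL, 28.5, 18.2 and 64.3 FPKM in RL, and 39.96, 70.7 and 22.1 FPKM in Ctrl. Every GL library was below every Ctrl library in FPKM, although by a narrow margin at 21.3 against 22.1, and on TMM-scaled counts per M (CPM) GL 2 lay just above Ctrl 3. The mean was lowest in GL (14.4 ± 6.17 FPKM, SD, n = 3), and the neighbouring BL mean (28.1 ± 14.1 FPKM, SD, n = 3) was within its own spread of GL.

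ATF3, a stress-induced repressor that pairs with Jun proteins, lies on NC_013684.1 at 60421650 to 60434504, minus strand. It had 7.85, 33.6 and 17.6 FPKM in BL, 17.5, 25.5 and 8.56 FPKM in GL, 15.8, 17.9 and 122 FPKM in RL, and 31.0, 38.3 and 24.1 FPKM in Ctrl. The single library RL 3 stood far above the other 11, and the groups overlapped in all pairs.

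EGR1, a zinc finger factor of the injury response, lies on NC_013671.1 at 20738615 to 20742487, plus strand. It had 45.4, 88.9 and 130 FPKM in BL, 44.6, 73.3 and 54.0 FPKM in GL, 128, 101 and 173 FPKM in RL, and 127, 132 and 65.2 FPKM in Ctrl. All GL libraries were below all RL libraries, and GL overlapped BL and Ctrl. Means were 88.1 ± 42.3 FPKM in BL, 57.3 ± 14.6 FPKM in GL, 134 ± 36.1 FPKM in RL and 108 ± 37.1 FPKM in Ctrl (SD, n = 3 each).

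EGR3, of the same family, was scarce and erratic. It lies on the scaffold NW_003159424.1 at 14596 to 19871, plus strand, and its deposited counts ran between 17 in BL 1 and 2347 in RL 3. It had 0.104, 3.57 and 0.520 FPKM in BL, 0.553, 3.36 and 0.233 FPKM in GL, 0.383, 0.660 and 9.58 FPKM in RL, and 0.442, 2.21 and 1.09 FPKM in Ctrl. BL 2, GL 2 and RL 3 each stood far above the other libraries of their group, all groups overlapped, and no order of the groups could be read.

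DUSP1 (NC_013671.1, 53838319 to 53841423, minus strand) followed FOS. It had 33.3, 83.8 and 108 FPKM in BL, 20.4, 44.1 and 31.4 FPKM in GL, 122, 95.5 and 209 FPKM in RL, and 145, 156 and 43.5 FPKM in Ctrl. GL was below RL in every library, and GL 2 and Ctrl 3 lay together at 44.1 and 43.5 FPKM. Means were 75.1 ± 38.2 FPKM in BL, 32.0 ± 11.9 FPKM in GL, 142 ± 59.2 FPKM in RL and 115 ± 62.0 FPKM in Ctrl (SD, n = 3 each).

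IER2, a small nuclear protein gene induced with the Fos and Jun genes, lies on the scaffold NW_003160140.1 at 33519 to 36250, minus strand. It had 11.7, 19.0 and 34.8 FPKM in BL, 27.3, 36.2 and 26.7 FPKM in GL, 22.3, 33.4 and 55.0 FPKM in RL, and 24.5, 32.2 and 16.2 FPKM in Ctrl. GL was not low here: its mean of 30.1 ± 5.34 FPKM lay between those of RL (36.9 ± 16.6 FPKM) and Ctrl (24.3 ± 8.02 FPKM), all within their spread (SD, n = 3 each).

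MYC, the growth-promoting factor that responds more slowly than the Fos genes, lies on NC_013671.1 at 143523861 to 143528653, plus strand, and was low. It had 2.08, 3.91 and 5.33 FPKM in BL, 2.92, 3.64 and 2.03 FPKM in GL, 2.33, 6.45 and 4.69 FPKM in RL, and 3.51, 5.62 and 6.17 FPKM in Ctrl. The groups overlapped in every pair, with GL lowest on average at 2.86 ± 0.804 FPKM and Ctrl highest at 5.10 ± 1.40 FPKM (SD, n = 3 each).

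**Figure D1:**
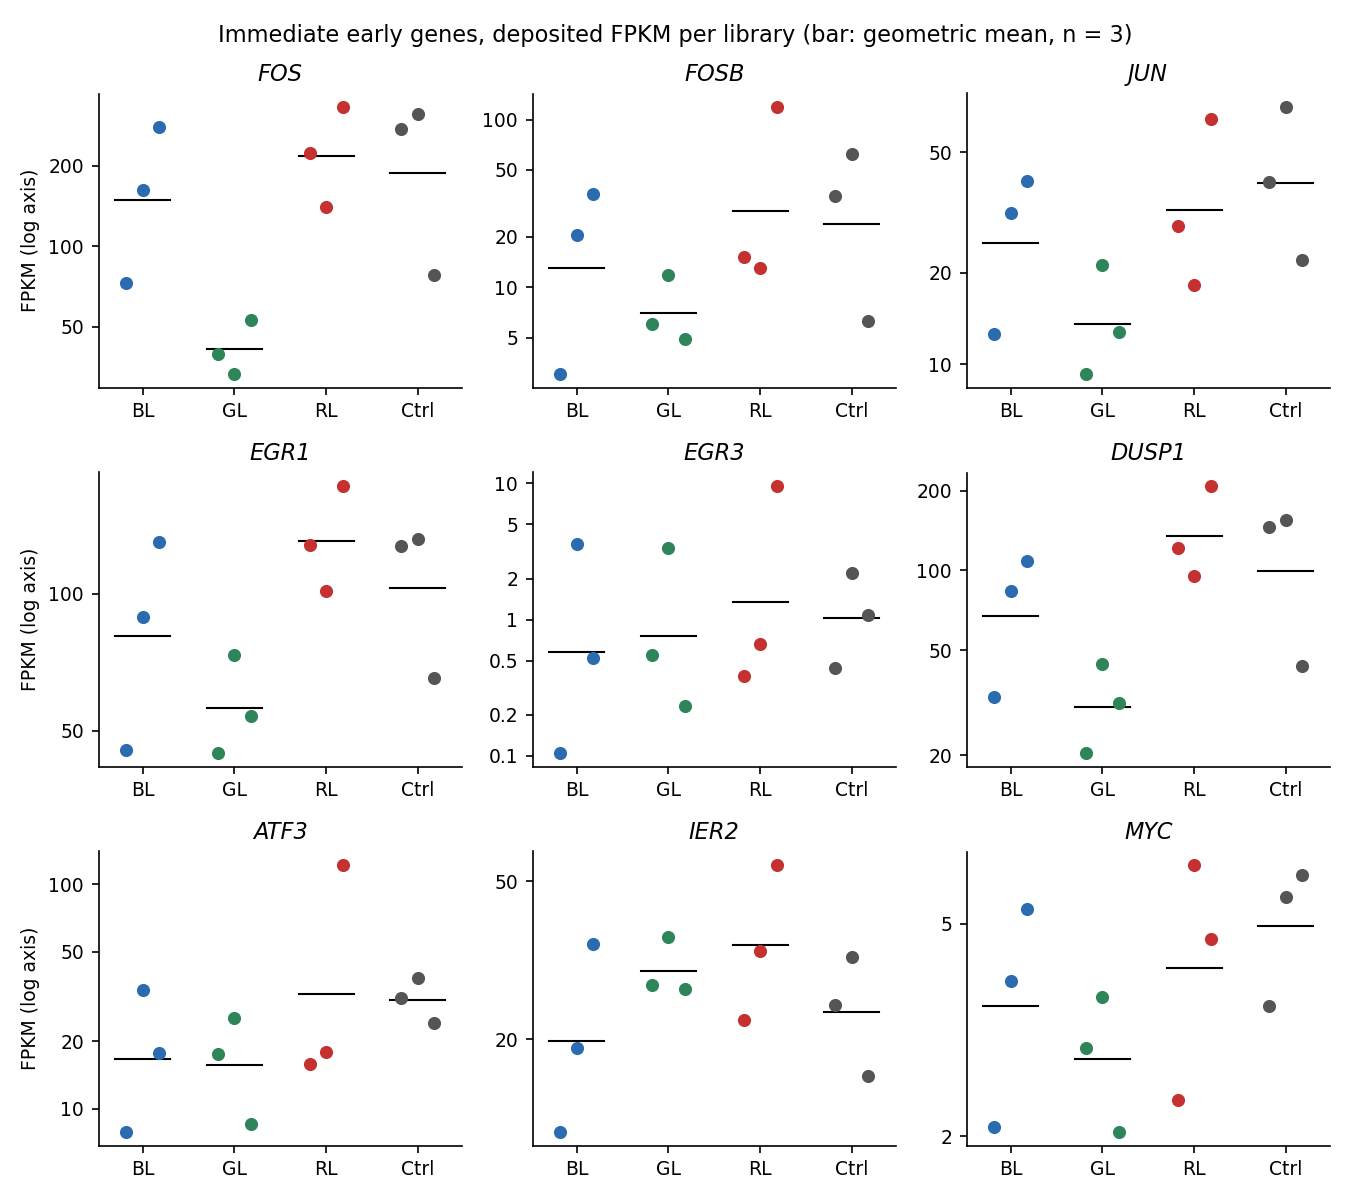
Deposited FPKM of the 9 immediate early genes in each library, on log axes, with BL, GL, RL and Ctrl side by side; each point is 1 library and each bar the geometric mean of 3. FOS in GL (33.2 to 53.2 FPKM) lies below the other 9 libraries, while IER2 in GL does not.

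All 9 genes passed the filter on low counts and entered a fit of 18171 genes. With edgeR's quasi-likelihood test and Benjamini-Hochberg adjustment over all genes, none of the 9 passed an adjusted p of 0.05 in any of the 8 comparisons below, nor did any by limma on log2(FPKM + 1). The 3 contrasts against Ctrl share the same Ctrl libraries and are given side by side. Log2 differences are on the scale of scaled counts, with the standard error of the fit. Since this is bulk tissue, fewer cells of a type and less RNA per cell cannot be told apart in any of them.

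In BL against Ctrl, 0 of the 9 genes were called (0.0165% of all genes tested were) and 0 had an unadjusted p under 0.05 (3.26% of all genes). Log2 differences lay between −0.79 and 0.16, with a median of −0.43 (0.01 over all genes), and 8 of the 9 were below 0, as were 48.1% of all genes. JUN (−0.66 ± 0.55) and DUSP1 (−0.61 ± 0.51) had estimates just over 1 standard error below 0 (edgeR adjusted p = 1 for both). Both turned to positive values, 0.24 and 0.055, when the 3 libraries highest in retina markers were left out. Those libraries are BL 1, GL 3 and Ctrl 2, with 90.0, 249 and 52.5 FPKM of retina markers, and BL 1 held the lowest level of 6 of the 9 genes. Without them 2 of 9 estimates, in place of 8, were below 0.

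In GL against Ctrl, 0 of 9 genes were called by edgeR (0.055% of all genes were), while 4 of 9 stood lower with an unadjusted p under 0.05 (4.52% of all genes did). They were FOS (log2 −2.35 ± 0.55, adjusted p = 0.333), DUSP1 (−1.79 ± 0.52, adjusted p = 0.475), JUN (−1.57 ± 0.56, adjusted p = 0.565) and EGR1 (−0.86 ± 0.38, adjusted p = 0.610). That count of 4 was 2 without GL 1, without Ctrl 2 or without the 3 libraries highest in retina markers. On scaled counts FOS was the 1 of 9 genes whose GL libraries were all below all Ctrl libraries (9.25% of all genes were). FOSB had −2.15 ± 1.01, ATF3 −0.81 ± 0.72 and MYC −0.78 ± 0.43, and IER2 and EGR3 had estimates above 0 (both below 0, IER2 at −0.51, with log2 library size as a covariate), so that 7 of 9 were below 0 (51.5% of all genes) and the median was −0.86, against −0.02 over all genes.

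DESeq2 called FOS (adjusted p = 0.000645) and DUSP1 (adjusted p = 0.0288) lower in GL than in Ctrl, with log2 differences that rounded to the same values, in a comparison in which it called 0.815% of its 18026 genes. No other setting tried called a member there. The FOS difference was −2.28 ± 0.59 with the 2 sets of libraries that differ in rare transcripts as a covariate, −3.03 ± 0.60 with log2 library size as a covariate, and −2.21 ± 0.57 without the 3 libraries highest in retina markers. For DUSP1 these were −1.76 ± 0.58, −2.36 ± 0.60 and −1.49 ± 0.58. Lens markers moved with the same contrast: 10 of 10 stood lower in GL than in Ctrl without overlap, with sums of 865 to 3470 FPKM in GL against 5336 to 8506 FPKM in Ctrl. Lens sums in RL were 829 to 3041 FPKM. The part of the lens markers in the result was not tested. Epithelial markers summed to 17468 to 18330 FPKM in GL, 11897 to 16108 FPKM in Ctrl and 13978 to 19957 FPKM in RL. On scaled counts 5 of the 6 tested stood higher in GL than in Ctrl without overlap. The other, PAX6, stood lower without overlap, at 222 to 283 FPKM in GL against 289 to 336 FPKM in Ctrl. The part of these epithelial differences was not tested either.

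In RL against Ctrl, 0 of 9 genes were called (0.011% of all genes were) and 0 had an unadjusted p under 0.05 (4.74% of all genes). Estimates lay above 0 for 7 of 9 (50.5% of all genes), with a median of 0.37, but this rested on RL 3: without that library 2 of 9, EGR1 and IER2, lay above 0 and the median was −0.23. The highest was that of EGR3 (1.56 ± 1.36), which was −1.19 without RL 3. IER2 stood at 0.67 ± 0.41. In the mean of the 3 light groups against Ctrl, 0 of 9 were called (0.011% of all genes) and 0 had an unadjusted p under 0.05 (4.2%), with FOS at −0.86 ± 0.41, JUN at −0.81 ± 0.43 and DUSP1 at −0.68 ± 0.40, and 7 of 9 estimates were below 0 (52.2% of all genes). These 3 estimates were −0.46, −0.13 and −0.25 without the 3 libraries highest in retina markers, and −0.51, −0.28 and −0.38 without Ctrl 2. DESeq2 called 0 of the 9 in BL against Ctrl, RL against Ctrl, the mean of the light groups against Ctrl and BL against RL, where it called 0.161%, 0.483%, 0.305% and 0.449% of its genes.

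**Figure D2:**
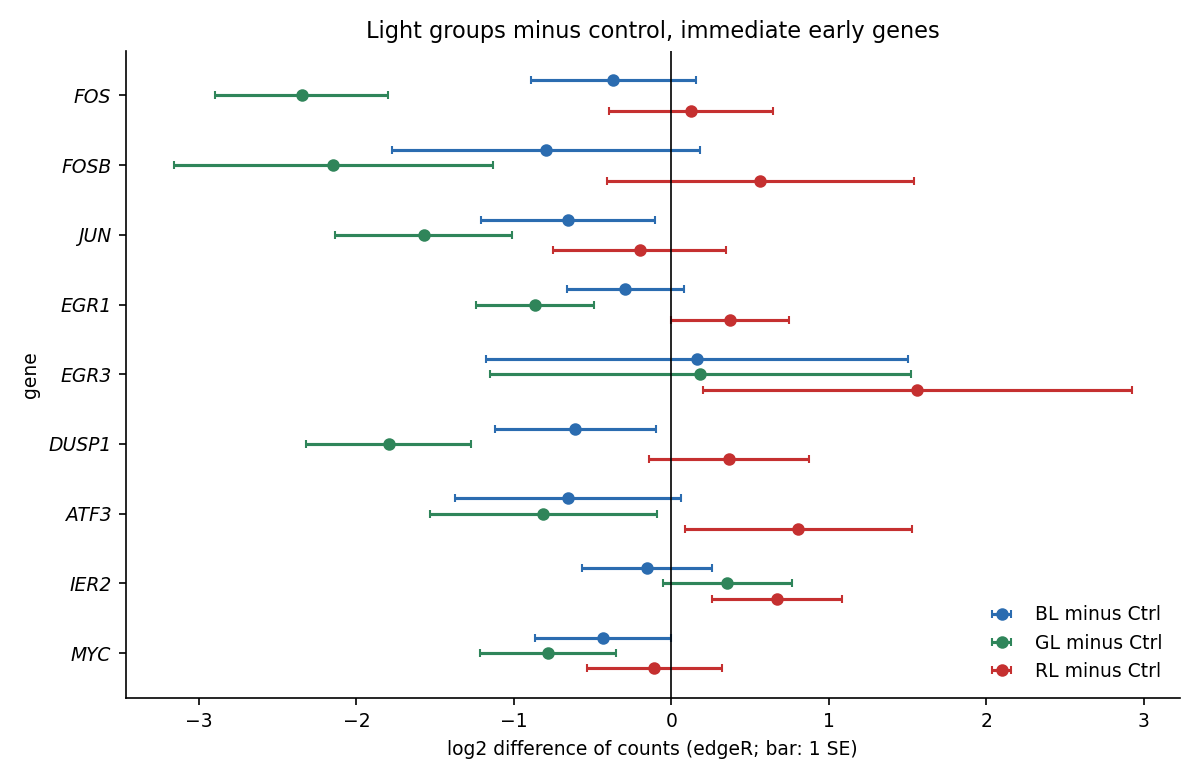
Log2 difference of scaled counts (x axis; edgeR estimate with 1 standard error) of each immediate early gene (y axis) for BL, GL and RL, each minus Ctrl. FOS at −2.35 in GL lies farthest from 0, and the 3 estimates of IER2 lie between −0.15 and 0.67.

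Between light groups, the widest separation was GL against RL. There 0 of 9 genes were called by edgeR (0.0715% of all genes were), 6 of 9 stood lower in GL with an unadjusted p under 0.05 (4.77% of all genes did), and 4 of 9 had all GL below all RL libraries (6.33% of all genes did). These 4 were FOS (log2 −2.47 ± 0.55, adjusted p = 0.211), FOSB (−2.71 ± 1.04, adjusted p = 0.547), DUSP1 (−2.16 ± 0.53, adjusted p = 0.295) and EGR1 (−1.24 ± 0.38, adjusted p = 0.466). JUN stood at −1.37 ± 0.56 and ATF3 at −1.62 ± 0.73, which was 0.0078 without RL 3. Without that library FOSB stood at −0.90, JUN at −0.69, FOS at −2.11, DUSP1 at −1.77 and EGR1 at −1.01, and 3 of 9 genes, in place of 6, had an unadjusted p under 0.05, as they did without GL 1 or GL 3. All 9 estimates were below 0, as were 51.4% of all genes, but without RL 3 this held for 6 of 9. DESeq2 called FOS (adjusted p = 0.000144) and DUSP1 (adjusted p = 0.00158) here, among 1.12% of its genes.

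In BL against GL, 0 of 9 genes were called by edgeR (0.0495% of all genes were) and 2 of 9 stood higher in BL with an unadjusted p under 0.05 (8.3% of all genes did). FOS (log2 1.98 ± 0.54, adjusted p = 0.241) had all BL above all GL libraries, as did 14.6% of all genes, and DUSP1 stood at 1.18 ± 0.52 (adjusted p = 0.314). JUN was at 0.91 ± 0.56 and EGR1 at 0.57 ± 0.37, and 7 of 9 estimates were above 0 (53.4% of all genes). DESeq2 called FOS alone among the 9 (adjusted p = 0.00890, with 2.06% of its genes called). All BL libraries were in the set with more rare transcripts and all GL libraries in the other. Light group and library set therefore cannot be told apart between these libraries. With the set as a covariate FOS stood at 1.82 ± 0.81 (edgeR adjusted p = 0.709). That fit takes the effect of the set from RL and Ctrl, where only RL 1 and Ctrl 1 are in the set with more rare transcripts. It therefore does not separate the 2 within BL and GL. In BL against RL, 0 of 9 were called (0.011% of all genes) and 0 had an unadjusted p under 0.05 (5.14%), although all 9 estimates were below 0 (48% of all genes), with EGR1 at −0.66 ± 0.37, DUSP1 at −0.98 ± 0.51, IER2 at −0.83 ± 0.41 and ATF3 at −1.46 ± 0.73. Without RL 3 only 5 of 9 were below 0, and ATF3 (0.17), JUN (0.22), FOSB (0.45) and EGR3 (1.35) lay above it. The test of any difference among the 4 groups called 0 of 9 (0.0605% of all genes), with FOS, DUSP1 and EGR1, 3 of 9, at an unadjusted p under 0.05 (7.79% of all genes). DESeq2's likelihood ratio test called FOS (adjusted p = 0.00223) and DUSP1 (adjusted p = 0.0151), among 1.54% of its genes.

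The spread within groups was wide for most of these genes. The SD of log2 CPM around the group means was 0.83 for FOS, 0.81 for DUSP1, 0.83 for JUN, 1.08 for ATF3, 1.60 for FOSB and 2.10 for EGR3, against a median of 0.44 over all genes tested. It was 0.56 for EGR1, 0.60 for IER2 and 0.61 for MYC. Compared with genes whose mean log2 CPM lay within 0.5 of their own, 8 of the 9 varied more than at least 92.8% of them, and MYC more than 80.0%. FOS, for example, exceeded 97.6% of 456 such genes.

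Much of that spread was shared. When each gene was standardised over the 12 libraries, RL 3 was highest for 7 of the 9 genes and the highest on average (1.56 SD above the genes' means), followed by Ctrl 2 (0.96), BL 3 (0.48) and Ctrl 1 (0.35). BL 1 was lowest for 6 of 9 and lowest on average (−1.41), with GL 3 (−0.97), GL 1 (−0.91) and Ctrl 3 (−0.34) next. The remaining averages were 0.23 in RL 2, 0.21 in BL 2, −0.04 in RL 1 and −0.12 in GL 2. BL and Ctrl each held libraries well above and below 0, while all 3 GL averages were below it. The highest retina sums were those of GL 3 (249 FPKM, average −0.97), BL 1 (90.0 FPKM, −1.41) and Ctrl 2 (52.5 FPKM, 0.96). Whether other tissue in a library moved these genes was not tested.

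**Figure D3:**
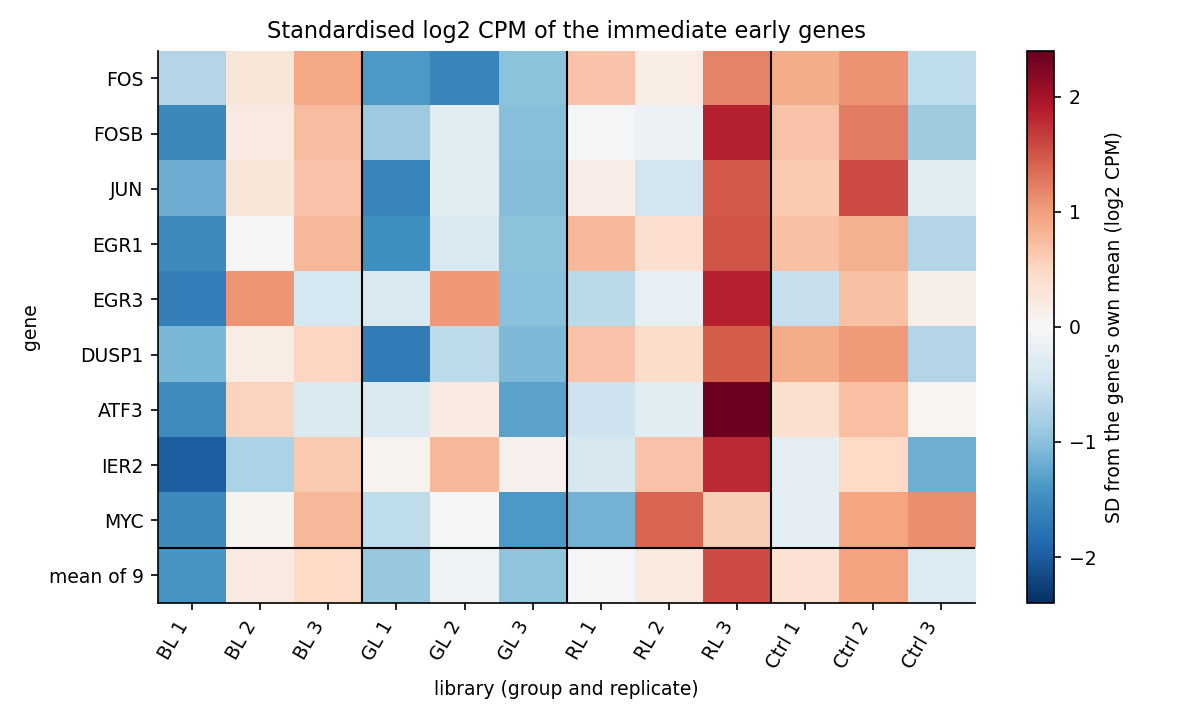
Standardised log2 CPM (colour, in SD from each gene's own mean over the 12 libraries) of the 9 genes (rows, with their average at the bottom) by library (columns, grouped as BL, GL, RL and Ctrl). RL 3 and Ctrl 2 are above 0 for all 9 genes and BL 1 is below 0 for all 9, while in GL 2 EGR3 and IER2 are high and FOS is low.

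All 36 pairs of the 9 genes correlated positively over the 12 libraries (log2 CPM), with a median Pearson's r of 0.61, and 17 of 36 had a BH adjusted permutation p under 0.05. Taken around the group means, all 36 remained positive (median r = 0.73). Within the 7 libraries with fewer rare transcripts the median r was 0.74, and without RL 3 over the other 11 it was 0.54. The 5 libraries of the other set were too few for a value.

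The closest pair was EGR1 with DUSP1 (r = 0.98, rho = 0.97; permutation p = 1e-05 for both, the smallest that 100000 permutations can give; adjusted p = 0.00018 for both), and r was 0.98 without BL 1 and GL 1, the 2 libraries farthest from the EGR1 median. FOS correlated with DUSP1 (r = 0.93, permutation p = 3e-05, adjusted p = 0.00018; rho = 0.90, permutation p = 0.00017, adjusted p = 0.000765), and r was 0.97 without GL 1 and GL 2. FOSB and JUN did likewise (r = 0.94, permutation p = 3e-05, adjusted p = 0.00018; rho = 0.95, permutation p = 4e-05, adjusted p = 0.00036), with r = 0.93 without BL 1 and RL 3. FOS, FOSB, JUN, EGR1 and DUSP1 thus formed a tight set, with r between 0.82 and 0.98 for all pairs.

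EGR3 kept to ATF3 instead (r = 0.90, permutation p = 4e-05, adjusted p = 0.000206; rho = 0.87, permutation p = 0.00053, adjusted p = 0.00173), with r = 0.77 without BL 1 and RL 3. With FOS it had r = 0.26 (permutation p = 0.41, adjusted p = 0.41; rho = 0.26, permutation p = 0.419, adjusted p = 0.431), and r was 0.56 without GL 1 and GL 2. IER2 had r = 0.30 with FOS (permutation p = 0.349, adjusted p = 0.359; rho = 0.22, permutation p = 0.502, adjusted p = 0.502). That pair had r = 0.64 without GL 1 and GL 2 and r = 0.75 around the group means. IER2 and FOSB, the only pair of IER2 under an adjusted p of 0.05 (r = 0.69, permutation p = 0.0119, adjusted p = 0.0269; rho = 0.48, permutation p = 0.121, adjusted p = 0.181), had r = 0.28 without BL 1 and RL 3. It had r = 0.91 around the group means and 0.73 within the 7 libraries with fewer rare transcripts. The correlation of ATF3 with IER2 (r = 0.61, permutation p = 0.0354, adjusted p = 0.0637; rho = 0.38, permutation p = 0.219, adjusted p = 0.248) was −0.12 without the same libraries. No pair with MYC passed.

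**Figure D4:**
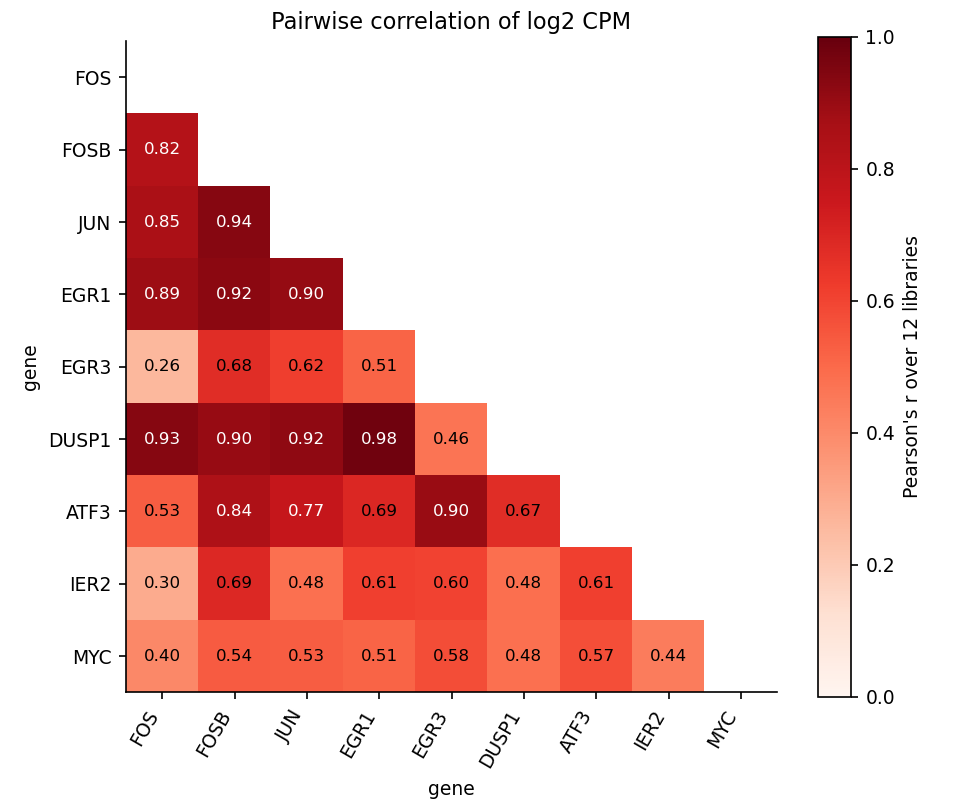
Pearson's r of log2 CPM over the 12 libraries for each pair of immediate early genes (both axes list the genes; darker red is higher). FOS, FOSB, JUN, EGR1 and DUSP1 share values of 0.82 to 0.98, and EGR3 is nearest to ATF3 at 0.90.

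Because IER2 did not follow FOS across groups, ratios of FPKM within a library were formed, a choice made after the values were seen and so given as description. FOS over IER2 was 6.27, 8.52 and 8.01 in BL, 1.45, 0.916 and 1.99 in GL, 10.03, 4.18 and 6.03 in RL, and 11.2, 9.70 and 4.82 in Ctrl. DUSP1 over IER2 was 0.746 to 1.22 in GL against 2.69 to 5.95 in the 9 other libraries, and EGR1 over IER2 was 1.63 to 2.02 in GL against 3.03 to 5.75. These 3 of the 8 other genes had all GL ratios below those of all 9 other libraries (0.429% of all genes did), whereas JUN, FOSB, ATF3, EGR3 and MYC overlapped. This count is no test, since IER2 was taken for not being low in GL. IER2 also shared spread with these 3 genes around the group means (r = 0.75 with FOS, 0.83 with DUSP1 and 0.86 with EGR1). The share over all genes is thus no fair yardstick for them. FOS over EGR1 was also lowest in GL, at 0.453 to 0.985, with 1.61, 1.82 and 2.14 in BL, 1.75, 1.38 and 1.92 in RL, and 2.15, 2.37 and 1.19 in Ctrl. On plain scaled counts FOS was the 1 of 9 genes with GL below all 9 other libraries (1.59% of all genes).

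**Figure D5:**
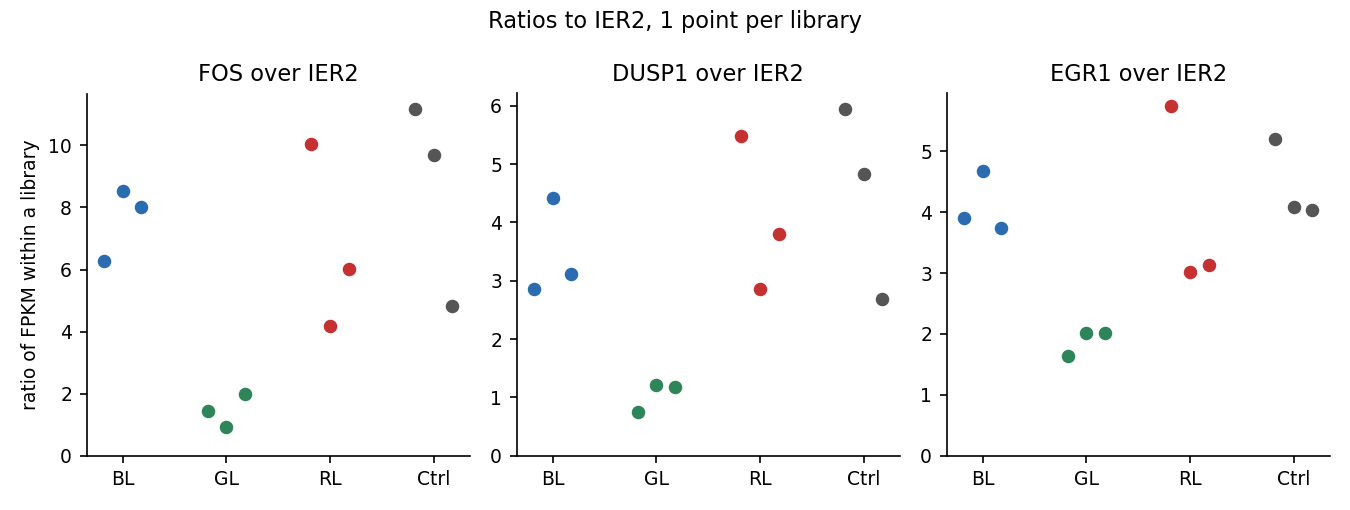
Ratio of FPKM of FOS, DUSP1 and EGR1 to that of IER2 within each library, 1 point per library, for BL, GL, RL and Ctrl (linear axes from 0). The GL points, such as 0.916 to 1.99 for FOS, lie below all others in each panel.

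Among further immediate early genes, 42 of the 50 listed were tested, and edgeR called none in any comparison against Ctrl, against a background of 0.0165%, 0.055% and 0.011% in BL, GL and RL. In GL 3 of 42 stood lower than in Ctrl with an unadjusted p under 0.05 (4.52% of all genes did) and 0 stood higher. In RL 4 of 42 stood higher (2.31% of all genes did) and 0 lower, and in BL there were 0 (3.26% of all genes in either direction). The median log2 difference was −0.12 in BL, −0.02 in GL and 0.26 in RL. For the 9 genes above, the rise in RL rested on the single library RL 3. Whether the RL count and median of these further genes did so too was not tested. ZFP36, whose product destabilises cytokine messenger RNAs, had 28.6, 58.1 and 95.7 FPKM in BL, 37.8, 40.8 and 34.7 FPKM in GL, 94.1, 82.5 and 134 FPKM in RL, and 120, 143 and 33.2 FPKM in Ctrl. All GL libraries lay below all RL libraries, but unlike for FOS, BL 1 and Ctrl 3 lay below every GL library. In GL against Ctrl ZFP36 stood at −1.34 (edgeR unadjusted p = 0.0167), and KLF6, a zinc finger factor, at −0.57 (0.0238). PTGS2, the inducible cyclooxygenase, averaged 9.42 ± 7.68 FPKM in BL, 3.07 ± 1.79 FPKM in GL, 11.6 ± 3.90 FPKM in RL and 6.33 ± 1.59 FPKM in Ctrl (SD, n = 3 each), with GL below RL in every library. The nuclear receptor NR4A1 reached 27.1 FPKM in RL 3 and stayed between 1.85 and 6.67 FPKM in the other 11.

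Within the EGR family, EGR2 behaved like EGR3, at 8.92 FPKM in RL 3 and 0.0776 to 3.397 FPKM elsewhere, while EGR4 was listed at 0 in all 12 libraries. The EGR corepressor gene NAB2 averaged 5.12 ± 0.510 FPKM in BL, 5.48 ± 1.81 FPKM in GL, 7.70 ± 2.30 FPKM in RL and 8.45 ± 3.63 FPKM in Ctrl (SD, n = 3 each). Of the other AP-1 genes 7 of 12 were tested and 0 had an unadjusted p under 0.05 in any contrast with Ctrl. FOSL2, a Fos relative, lay between 47.8 and 85.1 FPKM throughout, and FOSL1, another, was highest at 8.23 FPKM in RL 3. The remaining phosphatases and Sprouty and Spred inhibitors of the cascade (14 of 15 tested) had medians of 0.05 in BL, −0.03 in GL and 0.10 in RL against Ctrl, with SPRY1 the only one under an unadjusted p of 0.05 (GL, −0.51, edgeR unadjusted p = 0.0361). The farthest estimate of that list, −6.24 for the scarce phosphatase gene DUSP2 in GL, named after its values were seen, came from libraries at 0.178 FPKM or less, since DUSP2 was listed at 0 in all 3 GL libraries and in Ctrl 3.

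Kinases and factors upstream of the 9 genes had list medians near 0. Of 21 listed MAP kinase cascade genes, 19 were tested and edgeR called 0 against Ctrl, with 0, 1 and 0 at an unadjusted p under 0.05 in BL, GL and RL. The list's medians were 0.00 in BL, 0.03 in GL and 0.05 in RL. Over all genes, 3.26% in BL and 4.74% in RL had such a p, and in GL 4.52% stood lower with one. These shares also hold beside the counts of the next lists. Of the 12 SRF, ELK and CREB genes, 1 had an unadjusted p under 0.05 in GL, ELK1 (0.43), and 1 in RL, the CREB coactivator gene CRTC3 (−1.12), with medians of 0.01, −0.02 and −0.12 in BL, GL and RL. SRF itself had 7.99, 8.07 and 9.75 FPKM in GL against 5.99, 7.68 and 7.55 FPKM in Ctrl. Among 10 MYC partner genes 1 stood lower in BL, MAX (−0.60, unadjusted p = 0.0384), and 1 higher in GL, MYCL (0.61, 0.0362). None of these lists held a gene that edgeR called after adjustment in any comparison.

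Of genes known to be driven by AP-1 or EGR1, 11 of 15 were tested and edgeR called 0 against Ctrl. In each of BL, GL and RL 1 had an unadjusted p under 0.05 (3.26% of all genes in BL and 4.74% in RL, and 4.52% lower in GL). PLAU, which encodes the protease urokinase, had 81.0, 131 and 63.6 FPKM in BL, 50.2, 60.2 and 34.3 FPKM in GL, 85.2, 76.1 and 131 FPKM in RL, and 54.2, 40.9 and 68.2 FPKM in Ctrl. Its estimates against Ctrl were 0.76 in BL (unadjusted p = 0.0299), −0.12 in GL and 0.91 in RL (unadjusted p = 0.0117). Heat shock genes (9 of 12 tested) had medians of 0.07 in BL, −0.05 in GL and 0.38 in RL against Ctrl. All 9 estimates were above 0 in RL, as were 50.5% of all genes, and none reached an unadjusted p under 0.05 against Ctrl.

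The 10 genes most like the average of the 9 over the 12 libraries were taken from 11500 named genes with a mean of at least 1 CPM, by Pearson's r, as a description. They were GDAP1L1 (r = 0.92), ZFP36 (0.89), BTG2 (0.87), ACAA2 (0.87), AHSA2 (0.85), MRPS17 (0.83), IDH3B (0.81), POLR1E (0.81), C9H3orf62 (0.81) and NSUN4 (0.80). ZFP36 and BTG2, an antiproliferative gene, are in the list of further immediate early genes, and the other 8 are in none of the lists. BTG2 ranged between 15.3 and 54.8 FPKM in BL, 22.7 and 33.5 FPKM in GL, 23.8 and 122 FPKM in RL, and 21.1 and 92.1 FPKM in Ctrl. In contrast, ACAA2, a mitochondrial thiolase, kept within 37.6 and 60.8 FPKM, and IDH3B, a subunit of isocitrate dehydrogenase, within 47.8 and 59.4 FPKM. Both thus spanned a narrow range. The r values were taken on log2 CPM, and the order of libraries in FPKM can differ from that of the 9. IDH3B, for example, had 52.6 to 59.4 FPKM in BL and 47.8 to 52.2 FPKM in GL. For the 42 further immediate early genes the median r with that average was 0.51, with values between −0.61 and 0.89. The median was 0.06 for the 19 MAP kinase cascade genes and 0.00 over all genes tested.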

How the data were processed

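RNA-seq of 12 rabbit cornea libraries (3 each BL, GL, RL and Ctrl, by title) was analysed from 1 table deposited by the authors, which per the file headers holds for each gene both its FPKM and its estimated count in every library; FPKM is 0.0001 where the count is 0, and such values are called listed at 0. The submitters' processing notes name GRCm38 and mm10, a mouse build, while the file places genes on rabbit RefSeq sequences. The sources used here do not name an aligner or counter. Counts are whole but pile up in steps of about 3.83 (2679 values of 4 against 851 of 3), so 1 fragment stands for several counts. The members and lists were chosen with earlier results of these data known.

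Counts were tested with edgeR 4.0.16 (R 4.3.3; quasi-likelihood, TMM factors 0.944 to 1.06, filterByExpr, 1 fit with 4 group means, BH adjustment over 18171 genes). The procedure was tested on simulated data. Alternatives used DESeq2 1.42.0 and limma 3.58.1 with a pseudocount of 1 or 0.1. Correlations used log2 CPM with a prior count of 2 and 100000 permutations over 36 pairs. Groups were called not overlapping on CPM. By rule, the text names all members, up to 4 genes per list with the smallest p for any difference, and the 10 genes most like the members' average; some results for listed genes are not reported here. Of 9 member identifiers, 8 carry the same symbol in the RefSeq gene table of mOryCun1.1, used for names only.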

Additional observations from a re-analysis of the deposited data

How the results depend on the processing

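Each of 8 comparisons was refitted under up to 27 alternatives. The count of members called by edgeR, 0 of 9 in all 8, stayed at 0 in all of them but DESeq2, which called 2 in GL against Ctrl, 1 in BL against GL, 2 in GL against RL and 2 in the test of any difference. Leaving out each library in turn gave 0 to 0 throughout. The cause was not tested. For 28 of the 63 member differences (9 genes by 7 contrasts), chosen with the values known, 751 refitted values were compared. Of these, 741 kept their direction and side of the threshold, 5 passed it with DESeq2, and 5 changed sign. Those that changed sign were JUN (0.24) and DUSP1 (0.055) in BL against Ctrl without the 3 libraries highest in retina markers, and, without RL replicate 3, EGR3 in RL against Ctrl (−1.19 to 2.29 over the single libraries left out), ATF3 in BL against RL (−2.11 to 0.17) and ATF3 in GL against RL (−2.06 to 0.0078). Over the other 35 differences, 72 of 927 refitted values changed sign, in 28 of the 35. Leaving out RL 3 alone changed the sign of 13 of the 63. The FOS difference in GL against Ctrl ranged between −3.03 and −1.93.

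Counts over all genes moved more. In GL against Ctrl 10 genes became 147 with DESeq2, 62 by limma with array weights, 28 when only both groups were fitted, 6 by limma with no filter, 5 with log2 library size as a covariate, 1 without the 3 libraries highest in retina markers, 21 without GL 2 or without Ctrl 1, and 3, 6, 5 and 4 without GL 1, GL 3, Ctrl 2 and Ctrl 3. Over all alternatives the counts were 1 to 29 in BL against Ctrl (3 by edgeR), 1 to 87 in RL against Ctrl (2), 1 to 55 for the mean of the light groups against Ctrl (2), 0 to 372 in BL against GL (9), 1 to 81 in BL against RL (2), 2 to 201 in GL against RL (13) and 0 to 262 for any difference (11).

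Deviations of libraries that share a replicate number correlated weakly at most (r between −0.07 and 0.24 over 18 pairs), so the numbers were not taken to pair them. The highest r was that of RL 1 with Ctrl 1, both in the set with more rare transcripts. Libraries of unlike number were not compared in this way. With a replicate block edgeR called 0 of 9 members in all 8 comparisons, and FOS in GL against Ctrl stood at −2.46 ± 0.58. The lowest count of any member was that of EGR3 in BL 1, at 17 counts and fewer fragments.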

Other observations

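Several inducible genes were low or listed at 0 in many libraries. IL6, an inflammatory cytokine gene, and NPAS4, an immediate early gene of neurons, were listed at 0 in all 12 libraries. AREG, an EGF receptor ligand, was at most 0.120 FPKM in BL and was listed at 0 in every GL and Ctrl library, and reached 1.65 FPKM in RL 3. CXCL8, a neutrophil attractant, ranged between 0.576 and 6.91 FPKM in BL, 0.298 and 0.720 FPKM in GL, 1.05 and 7.67 FPKM in RL, and 0.377 and 2.52 FPKM in Ctrl. Its high libraries, BL 2 and RL 3, were also the 2 highest for EGR3. These genes were picked out after their values were seen.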
